A study of Mus musculus with 18 samples.

Results

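The comparison described here set the mandibular condylar cartilage, a secondary cartilage, against Meckel's cartilage (MC), the primary cartilage of the lower jaw, in embryos without an Fgfr2 mutation. It used 6 of the 18 RNA-seq libraries of the series, chosen by their labels alone: 3 libraries of condylar cartilage and 3 of MC. All embryos of the series were female C57BL/6 mice at embryonic day 16.5 (E16.5), and each tissue was cut from frozen sections by laser capture microdissection (LCM). The 3 control embryos (Fgfr2+/+, labeled WT) each gave 1 library of condylar cartilage, 1 of MC and 1 of mandibular bone, so that both cartilages came from the same 3 animals. Libraries with the same replicate number, whose sample codes share a stem, were taken as 1 embryo, which the labels do not state outright. Their 3 littermates of the other genotype (Fgfr2+/S252W) carried 1 copy of the Fgfr2 allele with the Apert syndrome mutation and gave the same tissues. Their cartilage libraries were part of the fit, where they shared in the estimate of the spread, and their own tissue difference is set beside that of the controls at the end. The labels name no treatment. The question addressed was how the transcriptomes of both cartilages differ at this age.

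MC forms early as a rod of cartilage along the lower jaw, from mesenchyme derived from the cranial neural crest. It serves as a template around which the mandible ossifies, and most of its length later disappears or turns into ligament, while its ends contribute to the middle ear and to the symphysis. The condylar cartilage arises later, from cells of the periosteum beside bone that has already begun to form, and it becomes a growth site of the jaw in which chondrocytes divide, flatten, enlarge (hypertrophy), mineralize their matrix and are replaced by bone. In growth cartilages, SOX9 with SOX5 and SOX6 drives the genes of cartilage matrix, and prehypertrophic cells secrete Indian hedgehog (IHH), which is held in balance with parathyroid hormone-related protein (PTHrP, encoded by Pthlh).

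Each of the 6 libraries held between 9510261 and 10743134 counted fragments, but much of this came from mitochondrial RNA and from Gm42418, a locus that overlaps ribosomal RNA. Gm42418 took 24.1 to 39.4% of fragments in MC and 12 to 20.1% in condylar cartilage, and mitochondrial genes took 26.3 to 38.1% and 19.4 to 23.6%. The fragments that were left numbered 2990829 to 4960691 in MC and 6406162 to 7271614 in condylar cartilage, so low genes were measured less precisely in MC. The median SD of log2 levels among the 3 embryos was 0.543 in MC and 0.268 in condylar cartilage.

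The MC library of embryo 1 stood apart from the other MC libraries. Its Spearman correlation with them across tested genes was 0.885 and 0.891, against 0.911 between the others and 0.964 to 0.982 among the condylar libraries. Its level of Col2a1, the main collagen of cartilage, was 35.9 FPKM (fragments scaled to exon length and library size) against 408 and 413 in the other MC libraries. On the scale set over all 18 libraries, its summed level over 21 cartilage matrix genes was 203 FPKM against 1004 and 1021, while over 19 osteoblast and bone matrix genes it was 1854 against 1205 and 981. Ibsp, which encodes bone sialoprotein, was at 96.1 FPKM in this library and at 2.97 and 1.84 in the others. What set it apart was not tested, and list counts are given below with and without this library. Both tissues expressed Sox9, Col2a1 and Acan in every library, as their labels ask, and the 3 condylar libraries had summed cartilage matrix levels of 9108, 8381 and 9127 FPKM. Against mandibular bone of the same embryos (291, 217 and 373 FPKM), the MC libraries of embryos 2 and 3 were higher on this list and that of embryo 1 was lower than all 3. The summed level of the chondrogenic transcription factors in MC (108, 131 and 138 FPKM) lay in or below the range of bone (123 to 163). In bulk tissue, fewer cells of a type and less RNA per cell cannot be told apart.

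**Figure D1:**
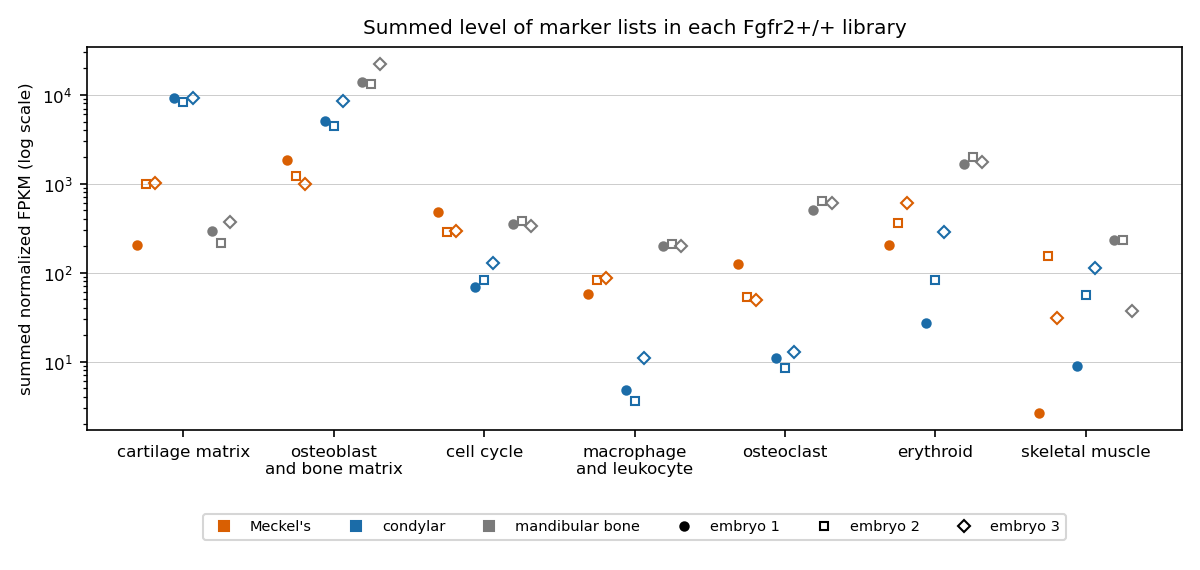
Summed normalized FPKM (log axis, scaled over all 18 libraries) of 7 marker lists in each Fgfr2+/+ library, with MC in orange, condylar cartilage in blue and mandibular bone in gray, and a marker shape for each embryo. The MC library of embryo 1 (filled circle) lies lowest for cartilage matrix at 203 FPKM and highest of the MC libraries for osteoblast genes at 1854 FPKM.

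The cartilages differed over a large part of the transcriptome. Among 11822 genes tested, 2165 (18.3%) were higher and 2151 (18.2%) lower in condylar cartilage at an adjusted p below 0.05 (limma with voom weights, embryo as a block, Benjamini-Hochberg adjustment over all tested genes), together 36.5%. The change was at least 8-fold (a log2 difference of 3 or more) for 413 of the higher and 367 of the lower genes. All 3 condylar libraries lay on the same side of all 3 MC libraries for 5671 genes (48%), of which 4074 were called. Among all tested genes, 879, called or not, were above 1 FPKM in all 3 libraries of one tissue and in none of the other. For this count FPKM used total fragments without TMM factors. Without the MC library of embryo 1, over the same genes, 1816 (15.4%) were higher and 1794 (15.2%) lower, and 3276 of the 4316 calls were kept. With embryo as a block, a library without its partner carries no information on the tissue difference, so this setting compared embryos 2 and 3 alone. Changes below are log2 differences of condylar minus MC with their standard errors, and levels are FPKM for embryos 1, 2 and 3 in that order. Counts of list members stand beside 18.3% higher and 18.2% lower of all tested genes, or 15.4 and 15.2% without the MC library of embryo 1.

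**Figure D2:**
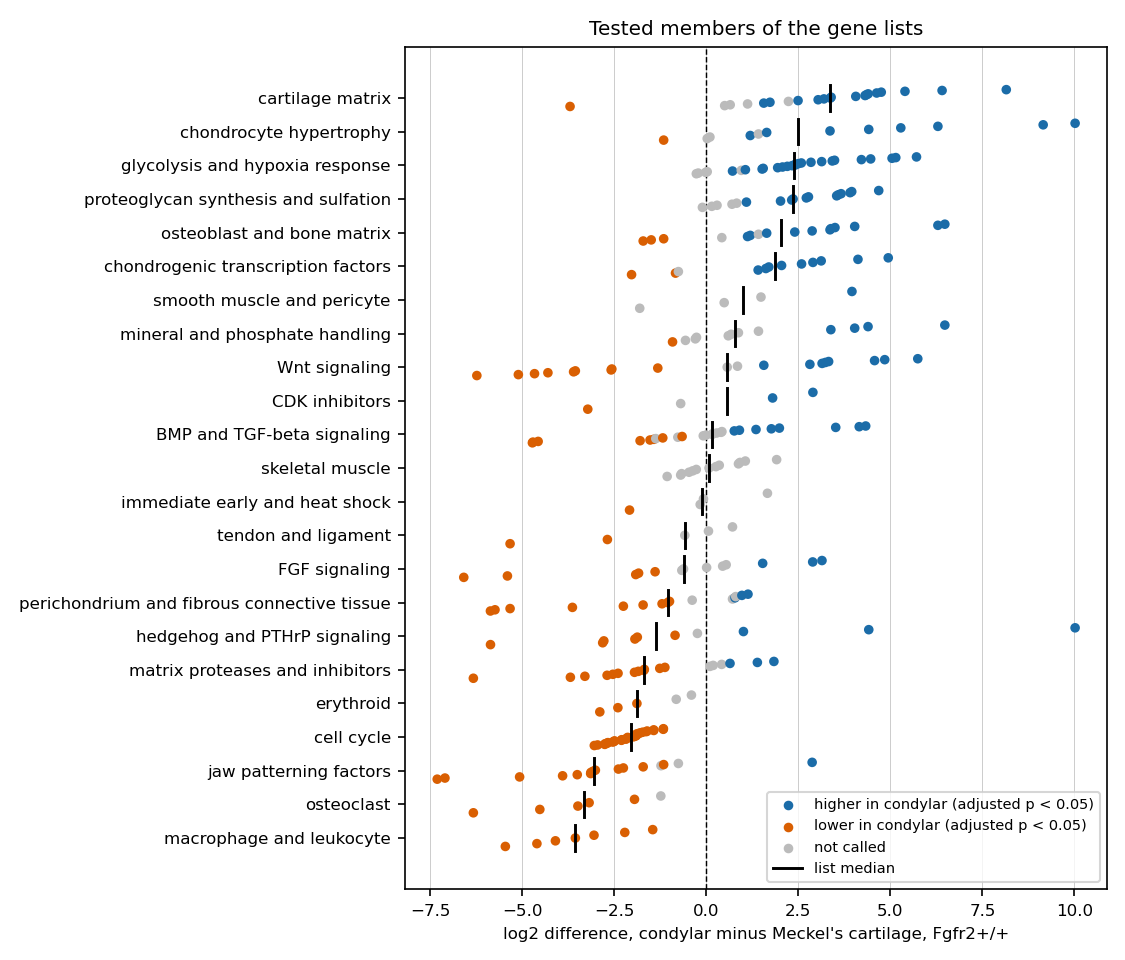
Log2 difference, condylar minus Meckel's cartilage, of each tested gene (point) in the lists with at least 4 tested members, colored by its call. Black bars are list medians and the dashed line is the median of all tested genes; glycolysis, sulfation and cartilage matrix lie to the right, and cell cycle, jaw patterning, osteoclast and macrophage genes to the left.

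Most of the largest increases were in genes with few or no fragments in MC. The 12 largest increases included Gjc3, Ihh, Smim5, Col10a1, Lipg, Cdh19, Rasgrf2, Slc14a1, Hapln1, Agt and Pcolce2. Of the 12, 8 had no fragment in any MC library, so that only a lower bound can be given (computed against 3 fragments over the MC group). Gjc3, a connexin gene known from myelinating glia, was at 20.7, 20.9 and 15.7 FPKM in condylar cartilage and at least 562-fold higher than in MC. Ihh followed with at least 558-fold, Smim5, which overlaps Recql5, with 309.9-fold, the endothelial lipase gene Lipg with 253-fold and the cadherin gene Cdh19 with 212-fold. The bounds were 203-fold for Rasgrf2 and 171-fold for the urea transporter gene Slc14a1. Agt, which encodes angiotensinogen, had 3 fragments in all in MC, and its ratio was 297 (95% counting interval 101 to 1441).

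The 12 named decreases were Fendrr, Tenm1, Plxdc2, Prss23, Itgbl1, Msx1, Foxp2, Eln, Ptgfr, Gria1, Dnah2 and Pappa2. Fendrr, a long noncoding RNA, was at 3.96, 6.61 and 6 FPKM in MC and had no fragment in condylar cartilage, which makes it at least 247-fold lower. Eln, the gene of elastin, was at 3.42, 26.4 and 22.7 FPKM in MC and at 0.0243, 0.0272 and 0.552 in condylar cartilage (log2 difference -6.82 ± 0.76, adjusted p = 2.75e-05). Foxp2, a forkhead transcription factor, was at 4.39, 9.47 and 7.98 FPKM against 0.0483, 0.012 and 0.122 (log2 difference -7.06 ± 0.66, adjusted p = 8.62e-06). The groups did not overlap for any of these increases and decreases, which the naming rule required. The smallest p-values belonged to Serinc5, Antxr1, Col10a1 and Svil. Serinc5 was at 11, 9.05 and 7.59 FPKM in MC and 188, 165 and 176 in condylar cartilage (log2 difference 4.26 ± 0.20, adjusted p = 1.99e-07). Antxr1, an anthrax toxin receptor that binds collagen, went the other way, from 87.3, 88.7 and 80.8 to 7.61, 7.54 and 7.99 (log2 difference -3.47 ± 0.18, adjusted p = 5.06e-07).

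Genes of cartilage matrix were higher in condylar cartilage. Of 21 members, all tested, 16 were higher, 1 was lower and 4 were not called, with a median log2 difference of 3.37 against -0.01 over all tested genes. Hapln1, the link protein that ties aggrecan to hyaluronan, was at 1.46, 8.2 and 9.36 FPKM in MC and at 1483, 1398 and 1293 in condylar cartilage (log2 difference 8.15 ± 0.47, adjusted p = 5.35e-07). Col2a1 was at 35.9, 408 and 413 and 3551, 3317 and 3889 (log2 difference 4.35 ± 0.58, adjusted p = 9.33e-05). Acan, the aggrecan gene, was at 11.5, 26.6 and 34.6 and 397, 359.8 and 567 (log2 difference 4.31 ± 0.43, adjusted p = 1.32e-05). No condylar library of these genes fell within the range of MC. Col11a1, whose product regulates the width of collagen II fibrils, was nearly even among the MC embryos at 70.9, 89.7 and 83.8 FPKM and reached 800.2, 730.5 and 699 (log2 difference 3.2 ± 0.21, adjusted p = 1.10e-06). Comp, a pentameric matrix glycoprotein, rose from 1.46, 5.66 and 7.31 to 166, 155 and 187 (log2 difference 5.4 ± 0.52, adjusted p = 1.03e-05), and Matn3, a matrilin gene, from 0.399, 1.39 and 1.47 to 82.9, 77.1 and 80.1 (log2 difference 6.41 ± 0.64, adjusted p = 1.36e-05).

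All 3 collagen IX genes were higher. Col9a1 differed by 3.37 ± 0.47 (adjusted p = 1.40e-04) and Col9a3 by 4.06 ± 0.62 (adjusted p = 2.72e-04), whereas Col9a2 differed by 1.73 ± 0.43 (adjusted p = 0.00666) and missed the threshold without the MC library of embryo 1, at 0.98 (adjusted p = 0.0501). Col11a2 also missed it without that library (0.60, adjusted p = 0.24). The lower member was Cytl1, a secreted cytokine-like protein of chondrocytes, at 6.26, 64.6 and 32.5 FPKM in MC and 1.81, 2.02 and 3.08 in condylar cartilage (log2 difference -3.7 ± 0.55, adjusted p = 2.04e-04). Chad, Mia, Epyc and Ucma were not called, at log2 differences of 0.65 ± 0.73, 0.50 ± 0.43, 2.23 ± 0.98 and 1.12 ± 1.17. Epyc and Ucma reached at most 1.83 FPKM in any of the 6 libraries. The counts were 14 higher and 1 lower without the MC library of embryo 1, and the difference for Col2a1 was 3.13.

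Among 13 chondrogenic transcription factors, 12 were tested, 9 were higher and 2 lower in condylar cartilage (median 1.87). Sox9, the master regulator of chondrogenesis, was at 3.14, 15.9 and 13.3 FPKM in MC and 71.2, 80.4 and 82 in condylar cartilage (log2 difference 3.12 ± 0.33, adjusted p = 1.92e-05). Its partners rose less, Sox5 by 1.62 ± 0.34 (adjusted p = 0.00245) and Sox6 by 1.41 ± 0.21 (adjusted p = 1.99e-04). Mef2c, which promotes hypertrophy, was at 29.7, 10.6 and 11.2 and 123, 118 and 111 (log2 difference 2.9 ± 0.25, adjusted p = 5.25e-06), and Mef2d was higher by 1.7 ± 0.23. Hdac4, the histone deacetylase that holds MEF2 factors in check and delays hypertrophy, fell from 5.89, 7.05 and 10.7 to 1.92, 1.95 and 1.71 (log2 difference -2.03 ± 0.30, adjusted p = 2.17e-04). Trps1 rose by 2.59 ± 0.23 (adjusted p = 6.64e-06), and Runx3 by 2.04 ± 0.40 (adjusted p = 0.00141). Foxa2 and Foxa3, forkhead factors of hypertrophic cells, were at most 0.435 and 1.03 FPKM in MC and at 1.87, 1.68 and 3.06 and 6.36, 8.71 and 10.5 in condylar cartilage. Arid5b was the other lower member, at -0.84 ± 0.31 (adjusted p = 0.0496). Arid5b lost its call without a library of embryo 2 or of embryo 3 (adjusted p from 0.14 to 0.216) and by several other settings (up to 0.141 with no filter). Leaving out the MC library of embryo 1 gave 9 higher and 3 lower, the addition being Barx1.

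The IHH and PTHrP loop differed in opposite directions at its ligands. Ihh had no fragment in MC and was at 22.9, 22.3 and 38.3 FPKM in condylar cartilage. Pthlh, which in growth cartilages restrains hypertrophy, was at 1.9, 6.95 and 14.4 FPKM in MC and at 0, 0 and 0.655 in condylar cartilage (log2 difference -5.86 ± 0.79, adjusted p = 1.08e-04). Pth1r, the receptor of PTHrP, was at 11.1, 6.56 and 5.67 and 160.0, 149.6 and 203 (log2 difference 4.41 ± 0.28, adjusted p = 7.79e-07). The ligand Pthlh and its receptor Pth1r were thus high in different tissues, with no overlap for either gene. The hedgehog receptor and target Ptch1 was higher by 1.01 ± 0.33 (adjusted p = 0.0283), but its levels overlapped, at 73.8, 26.3 and 16.5 in MC and 68.8, 53.6 and 82.1 in condylar cartilage, and it was not called without the embryo block (adjusted p = 0.0541) or without a library of embryo 2 or of embryo 3 (adjusted p from 0.0722 to 0.318). The target Gli1 was lower, at 13.5, 14.1 and 8.03 and 1.34, 1.34 and 2.68 (log2 difference -2.78 ± 0.37, adjusted p = 9.02e-05), as was Gli2, a transcription factor of the pathway (log2 difference -2.82 ± 0.37, adjusted p = 8.58e-05). Hhip, an inhibitor that binds hedgehog ligands and is itself a target, was lower by -1.94 ± 0.50 (adjusted p = 0.00828), but was not called without the MC or the condylar library of embryo 2 (-1.35 and -1.28, adjusted p = 0.0621 and 0.0714). Sufu and Gli3 were lower too, at -1.87 ± 0.32 and -0.85 ± 0.20. Smo did not pass (-0.24 ± 0.19, adjusted p = 0.358). Of 11 members, 10 were tested, 3 were higher and 6 lower (median -1.36), with the same counts without the MC library of embryo 1. Of the 10, 6 exceeded 1 FPKM in all 6 libraries. Others, such as Ihh, passed the filter through the tissue in which they are high, so the counts are descriptions only. Without a library of embryo 2 or of embryo 3, 1 or 2 members were higher.

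Markers of chondrocyte hypertrophy were higher in condylar cartilage, 8 of 12 tested members higher and 1 lower (median 2.50). Col10a1, the collagen specific to hypertrophic chondrocytes, was at 1.31, 2.17 and 0.455 FPKM in MC and at 589.5, 563 and 1116 in condylar cartilage (log2 difference 9.15 ± 0.50, adjusted p = 5.06e-07). Panx3, a channel of prehypertrophic chondrocytes and osteoblasts, was at 49.8, 10.4 and 5.28 and 656, 681 and 653 (log2 difference 5.28 ± 0.47, adjusted p = 6.60e-06). For both genes every condylar library lay above every MC library. Mmp13, the collagenase of the last hypertrophic cells, did not pass, at 7.89, 1.75 and 0.887 and 4.02, 2.08 and 5.89 (log2 difference 0.10 ± 0.61, adjusted p = 0.918). Vegfa, the angiogenic factor of terminal hypertrophy, did not pass either (0.02 ± 0.38, adjusted p = 0.968). The single lower member was Dlx5 (-1.16 ± 0.22, adjusted p = 0.00115). The count was 9 higher and 1 lower without the MC library of embryo 1, Alpl being the addition, and 5 or 6 higher without a library of embryo 2 or of embryo 3.

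Of 19 osteoblast and bone matrix genes, 16 were tested, 11 were higher and 3 lower in condylar cartilage (median 2.02). Of the higher members, 4 (Runx2, Sp7, Ibsp and Spp1) also belong to the hypertrophy list. Ibsp was at 96.1, 2.97 and 1.84 FPKM in MC and 1172, 948 and 2309.8 in condylar cartilage (log2 difference 6.29 ± 0.86, adjusted p = 1.18e-04), with the MC library of embryo 1 far above the other MC libraries. Sp7 (osterix) was at 46.9, 4.83 and 7.08 and 39.8, 39.2 and 69.6 (log2 difference 1.64 ± 0.54, adjusted p = 0.0299), so that this MC library reached into the condylar range. Runx2 overlapped in the same way, at 54.8, 17.4 and 8.41 and 48.7, 46.7 and 52 (log2 difference 1.19 ± 0.37, adjusted p = 0.0247; adjusted p = 0.056 without the embryo block). Without that library the differences were 9.36 for Ibsp, 3.17 for Sp7 and 2 for Runx2, and the list gave 12 higher and 2 lower. Sp7 and Runx2 lost their calls when any library of embryo 2 or 3 was left out, at their lowest 0.96 (adjusted p = 0.225) and 0.55 (adjusted p = 0.245) without the MC library of embryo 3. Alpl, the alkaline phosphatase, passed without it (2.86, adjusted p = 0.00125, against 1.42 ± 0.63, adjusted p = 0.0972, with all libraries). Sparc, a collagen-binding glycoprotein, was at 409, 389 and 351 in MC and 1819, 1808 and 2513 in condylar cartilage (log2 difference 2.4 ± 0.23, adjusted p = 1.06e-05). Ifitm5, an osteoblast membrane protein, rose by 3.5 ± 0.41 (adjusted p = 3.77e-05).

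The collagen I genes, the most abundant transcripts of osteoblasts, showed small differences. Col1a1 was at 415, 296 and 208 FPKM in MC and 313, 272 and 717 in condylar cartilage and did not pass (log2 difference 0.42 ± 0.36, adjusted p = 0.398), while Col1a2 was higher by 1.12 ± 0.28 (adjusted p = 0.00723), but not called without the MC or the condylar library of embryo 3 (0.62 and 0.70, adjusted p = 0.129 and 0.0927). Dlx5 and Cadm1 were among the lower members, the latter not called without the MC library of embryo 1 (-0.71, adjusted p = 0.242 without it). Genes of late osteoblasts and osteocytes were split. Dmp1 was at 0, 0.409 and 0 and 10.8, 3.62 and 5.87 (log2 difference 6.48 ± 1.12, adjusted p = 6.37e-04), and Phex was at 1.82, 0.846 and 0.176 and 8.62, 6.25 and 19.7 (log2 difference 3.38 ± 0.63, adjusted p = 0.00107). When each library was left out, the differences ranged from 4.84 to 8.58 for Dmp1 and from 2.41 to 4.72 for Phex, both called wherever tested. Bglap, Bglap2 and Mepe, by contrast, had between 0 and 4 fragments over each tissue and were not tested; Bglap and Bglap2 are close copies whose fragments may not be told apart. Without the MC library of embryo 3, 7 members were higher, and without the condylar library of that embryo 6 were.

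**Figure D3:**
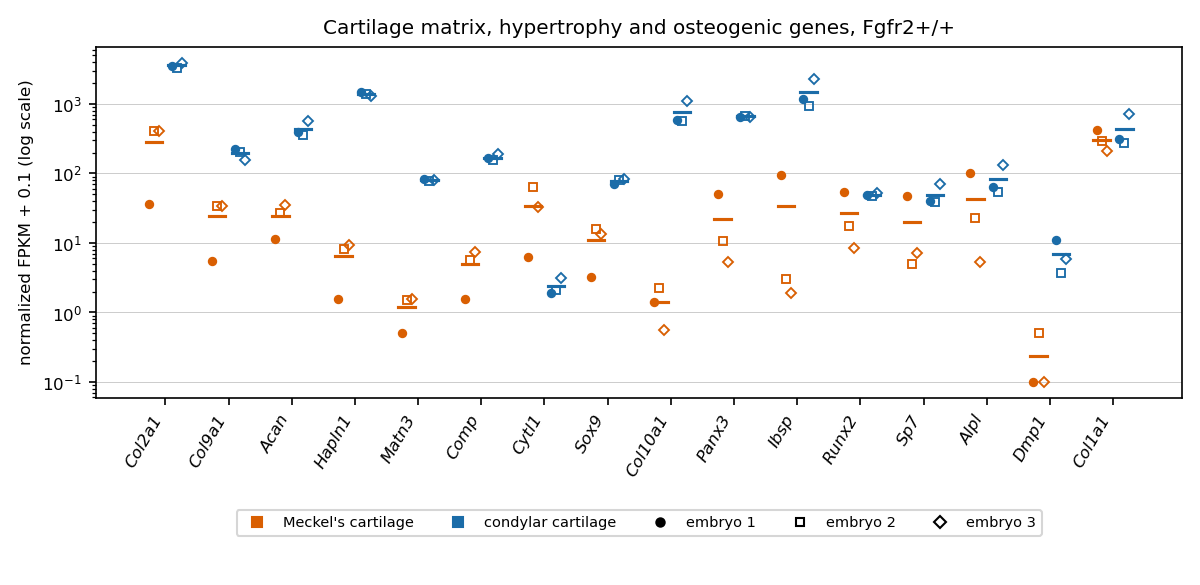
Normalized FPKM plus 0.1 (log axis) of 16 cartilage matrix, hypertrophy and osteogenic genes in the Fgfr2+/+ libraries, with MC in orange and condylar cartilage in blue; marker shapes are embryos and bars are means of 3. Col10a1 and Hapln1 separate the tissues widely, while for Runx2, Sp7 and Alpl the MC library of embryo 1 (filled circle) lies among the condylar libraries.

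Mineral and phosphate genes were called at a share close to that of all genes. Of 12 members, all tested, 4 were higher, 1 lower and 7 were not called (median 0.77), beside 36.5% called of all tested genes. Smpd3, a sphingomyelinase needed for mineralization, was at 31.2, 0.125 and 0.737 FPKM in MC and 126, 109 and 115 in condylar cartilage (log2 difference 4.03 ± 0.87, adjusted p = 0.00284), and the log2 difference was larger without the MC library of embryo 1 (8.2). Phospho1, a phosphatase of matrix vesicles, rose by 4.39 ± 0.84 (adjusted p = 0.00127); it overlaps Abi3, and fragments were counted without strand. Enpp1, which makes the mineralization inhibitor pyrophosphate, was at 0.864, 6.9 and 7.26 and 6.25, 5.25 and 6.33 and did not pass (0.60 ± 0.57, adjusted p = 0.452). Ank, which exports pyrophosphate, did not pass (-0.30 ± 0.34, adjusted p = 0.527), nor did Mgp, the matrix Gla protein (0.87 ± 0.36, adjusted p = 0.0745). The phosphate exporter gene Xpr1 was lower by -0.92 ± 0.21 (adjusted p = 0.00435). Without the MC library of embryo 1, Alpl joined the higher members, and without the condylar library of embryo 2 or of embryo 3, 2 members were higher.

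The enzymes that build and sulfate proteoglycans rose together with the matrix genes. Of 18 members, 17 were tested, 12 were higher and none was lower (median 2.36), with the same counts without the MC library of embryo 1. Papss2, which makes the activated sulfate donor, was at 4.9, 5.42 and 10.2 FPKM in MC and 171, 206 and 125 in condylar cartilage (log2 difference 4.68 ± 0.30, adjusted p = 1.10e-06). Chst11, a chondroitin sulfotransferase, was at 5.34, 3.45 and 6.15 and 83.1, 75.7 and 69.6 (log2 difference 3.95 ± 0.26, adjusted p = 1.15e-06). The sulfate transporter gene Slc26a2 was at 6, 4.85 and 5.81 and 74.1, 78.1 and 59.6 (log2 difference 3.66 ± 0.26, adjusted p = 1.28e-06). For all 3 the tissues did not overlap, and the MC library of embryo 1 did not stand apart. The nucleotide sugar transporter gene Slc35d1 rose by 3.59 ± 0.25, Xylt1, which starts the glycosaminoglycan chain, by 3.54 ± 0.47, and Chsy1, which extends it, by 2.72 ± 0.25. Their paralogs Xylt2 (0.15 ± 0.36, adjusted p = 0.78) and Chsy3 (0.70 ± 0.45, adjusted p = 0.25) did not pass. Ext1 and Ext2, which make heparan rather than chondroitin chains, did not pass either (-0.11 ± 0.23 and 0.29 ± 0.25).

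Glycolytic and hypoxia-response genes were higher in condylar cartilage across most of the pathway. Of 27 members, 26 were tested, 21 were higher and none was lower (median 2.37), and the counts were the same without the MC library of embryo 1. P4ha2 and P4ha1, subunits of the collagen prolyl hydroxylase, were at 8.51, 5.03 and 5.78 and 10.1, 6 and 9.38 FPKM in MC. In condylar cartilage they were at 132, 133 and 98.7 for P4ha2 (log2 difference 4.21 ± 0.27, adjusted p = 1.10e-06) and 78.5, 76.8 and 68.1 for P4ha1 (log2 difference 3.13 ± 0.23, adjusted p = 1.53e-06). Slc2a1, the glucose transporter GLUT1, was at 5.12, 2.49 and 4.32 and 93.4, 99.4 and 76.7 (log2 difference 4.47 ± 0.34, adjusted p = 2.35e-06). Bnip3, a mitophagy receptor induced by hypoxia, was at 4.02, 1.38 and 4.23 and 128, 120.1 and 71.1 (log2 difference 5.05 ± 0.46, adjusted p = 7.27e-06). None of these overlapped. Along glycolysis, Hk2 rose by 2.42 ± 0.48, Gpi1 by 1.06 ± 0.22, Aldoa by 2.58 ± 0.24, Gapdh by 2.42 ± 0.23, Pgk1 by 3.48 ± 0.38 and Ldha by 2.84 ± 0.28. Hif1a, the transcription factor of the response, rose by 0.71 ± 0.20 (adjusted p = 0.0127), a call lost without the MC or the condylar library of embryo 2 (adjusted p = 0.104 and 0.0672). The members that did not pass were Hk1, Pfkm, Vegfa, Ndrg1 and Epas1, and Car9 was not tested.

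The promoters of the glycolysis and hypoxia-response list were read for the core of the hypoxia-response element, ACGTG on either strand. This core overlaps the E-box CACGTG. Because the members were chosen for glycolysis or this response, a high share describes the list and not the tissue difference. A window of 250 bases before to 50 bases after the RefSeq start (GRCm38.p6) was found for all 21 higher members, and 14 of them (66.7%) held the core; over all 25 members with a window, higher or not, 18 (72%) did. The share was 30.2% over 8311 tested genes with a window, 35.7% over the higher genes, 24.3% over the lower genes and 19.6% over all 32851 windows. The windows of the 3 named members with the smallest p that hold it are shown in gene orientation with the core in capitals (either strand). They lie at chr11:54100674-54100973, plus strand (P4ha2), chr10:59323046-59323345, plus strand (P4ha1) and chr4:119108495-119108794, plus strand (Slc2a1).
P4ha2: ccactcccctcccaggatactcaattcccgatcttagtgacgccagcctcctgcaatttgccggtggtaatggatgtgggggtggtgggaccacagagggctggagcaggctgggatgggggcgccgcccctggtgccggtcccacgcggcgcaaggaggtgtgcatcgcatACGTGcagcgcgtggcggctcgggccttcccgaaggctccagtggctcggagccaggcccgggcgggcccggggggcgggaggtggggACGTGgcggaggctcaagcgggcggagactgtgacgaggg
P4ha1: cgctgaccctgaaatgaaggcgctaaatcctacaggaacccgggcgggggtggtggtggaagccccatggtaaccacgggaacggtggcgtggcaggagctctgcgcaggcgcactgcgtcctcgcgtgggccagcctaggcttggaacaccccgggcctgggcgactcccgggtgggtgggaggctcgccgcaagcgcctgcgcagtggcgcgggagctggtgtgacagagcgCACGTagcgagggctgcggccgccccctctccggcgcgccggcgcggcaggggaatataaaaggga
Slc2a1: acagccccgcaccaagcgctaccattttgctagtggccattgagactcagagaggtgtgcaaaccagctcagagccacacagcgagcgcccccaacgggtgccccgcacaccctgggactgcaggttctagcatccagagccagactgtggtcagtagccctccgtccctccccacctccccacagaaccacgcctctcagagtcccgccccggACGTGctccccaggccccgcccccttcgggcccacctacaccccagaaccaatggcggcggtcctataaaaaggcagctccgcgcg
A match describes these letters only and does not show that a factor binds there.

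Cell cycle genes were lower in condylar cartilage. All 30 members were tested and all 30 were lower (median -2.06), beside 18.2% of all genes. Mki67, the proliferation antigen Ki-67, was at 32, 18.2 and 14.3 FPKM in MC and 2.12, 2.64 and 5.05 in condylar cartilage (log2 difference -2.76 ± 0.38, adjusted p = 1.17e-04). Tpx2, a spindle assembly factor, was at 15.4, 7.87 and 7.79 and 1.41, 1.76 and 1.74 (log2 difference -2.68 ± 0.35, adjusted p = 9.03e-05), and Hmmr, another spindle protein, differed by -2.55 ± 0.36. Top2a, the topoisomerase of dividing cells, was at 37.9, 15.8 and 17 and 3.12, 3.85 and 5.33 (log2 difference -2.51 ± 0.36, adjusted p = 1.69e-04). The 3 MC libraries lay above the condylar libraries for 27 of the 30 genes, beside non-overlap in either direction for 48% of all tested genes. The MC library of embryo 1 was the highest in summed level, at 482 FPKM against 289 and 294, and the condylar libraries were at 69.1, 83.3 and 128. Without it, or without the condylar library of embryo 1, 20 of 30 were lower and none was higher, with Mki67 at -2.12 (adjusted p = 6.19e-04) and Pcna, the DNA clamp, at -0.59 (adjusted p = 0.322, against -1.17 ± 0.39 with all libraries). Cyclin D1 (Ccnd1), which links growth signals to the cycle, was even in MC at 25.7, 30.8 and 27.3 and lower in condylar cartilage at 7.6, 4.7 and 10.8 (log2 difference -1.9 ± 0.27, adjusted p = 1.65e-04). In the same libraries Cdkn1a (p21), which stops the cycle, was at 11.1, 11.2 and 13.1 and 82.8, 75.7 and 106 (log2 difference 2.9 ± 0.23, adjusted p = 2.98e-06). Cdkn1c (p57), which growth plate chondrocytes use to leave the cycle, was higher by 1.8 ± 0.19 (adjusted p = 1.68e-05). The inhibitor gene Cdkn2c was lower by -3.22 ± 0.55, and Cdkn1b did not pass (-0.70 ± 0.34, adjusted p = 0.128). The counts of these 4 inhibitor genes, 2 higher and 1 lower, were the same without the MC library of embryo 1.

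The promoters of these genes were read for TTTGAA, the core of the cell cycle homology region, on either strand. The members were chosen as cell cycle genes, so a high share describes the list and not the tissue difference. Of 25 members with a window, 13 (52%) held it, against 13.9% of tested genes with a window, 16.8% of the lower genes, 11.6% of the higher genes and 17.9% of all windows. The 3 windows shown belong to the named members with the smallest p that hold it, with the core in capitals. They lie at chr7:135716330-135716629, minus strand (Mki67), chr11:40733388-40733687, minus strand (Hmmr) and chr11:99024140-99024439, minus strand (Top2a).
Mki67: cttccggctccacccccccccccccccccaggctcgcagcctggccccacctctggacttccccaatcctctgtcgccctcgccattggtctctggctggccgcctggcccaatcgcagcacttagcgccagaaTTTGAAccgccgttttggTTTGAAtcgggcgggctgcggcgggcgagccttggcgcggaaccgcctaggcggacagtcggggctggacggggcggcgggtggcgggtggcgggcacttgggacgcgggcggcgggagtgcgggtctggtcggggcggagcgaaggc
Hmmr: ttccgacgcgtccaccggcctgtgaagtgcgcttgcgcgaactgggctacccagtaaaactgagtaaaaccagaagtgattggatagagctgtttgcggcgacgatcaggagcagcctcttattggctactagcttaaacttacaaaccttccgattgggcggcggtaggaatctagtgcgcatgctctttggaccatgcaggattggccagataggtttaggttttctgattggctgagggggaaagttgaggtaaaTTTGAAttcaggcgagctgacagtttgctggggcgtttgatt
Top2a: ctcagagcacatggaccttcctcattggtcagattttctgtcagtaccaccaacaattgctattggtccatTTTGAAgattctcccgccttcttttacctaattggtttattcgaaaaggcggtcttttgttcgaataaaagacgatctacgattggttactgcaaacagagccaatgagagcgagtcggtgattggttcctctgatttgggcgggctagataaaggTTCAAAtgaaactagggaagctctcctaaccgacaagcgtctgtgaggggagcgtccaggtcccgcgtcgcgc
The letters match in these windows, and no binding was measured.

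Transcription factors that pattern the jaw were lower in condylar cartilage. Of 23 members, 16 were tested, 13 were lower, 1 was higher and 2 were not called (median -3.05). Of these 16, 4 exceeded 1 FPKM in all 6 libraries, and most others passed the filter through MC, where they are high, so the count and the median are descriptions only. Hand2, which marks the distal and ventral part of the arch, was at 1.22, 1.95 and 5.73 FPKM in MC and had no fragment in condylar cartilage, at least 82.3-fold lower. Msx1, a homeobox factor of the jaw mesenchyme, was at 16.1, 19.5 and 15.2 and 0.13, 0.0727 and 0.116 (log2 difference -7.1 ± 0.62, adjusted p = 5.26e-06). Pitx1 was at 6.46, 18.8 and 11 and 0.592, 0.689 and 1.95 (log2 difference -3.51 ± 0.45, adjusted p = 8.31e-05). None of these overlapped, and the MC library of embryo 1 was the lowest MC library for Hand2 and Pitx1. Msx2, Dlx6, Lhx8 and Gsc were lower by -5.07 ± 0.66, -3.9 ± 0.57, -3.08 ± 0.47 and -3.14 ± 0.68. Prrx1, a factor of limb and face mesenchyme, was lower at 49.5, 72.6 and 65.3 against 14.6, 13.8 and 10.6 (log2 difference -2.25 ± 0.24, adjusted p = 2.33e-05), and so was Alx4 (log2 difference -3.01 ± 0.32, adjusted p = 2.24e-05), which overlaps Ext2. Dlx3 was the higher member, at 5.51, 0 and 1.02 and 9.77, 8.62 and 27.2 (log2 difference 2.87 ± 0.85, adjusted p = 0.0182). Dlx5, the neighbor of Dlx6, was still at 16.1, 13.7 and 16.1 in condylar cartilage, where Dlx6 was at 0.397, 0.191 and 0.508. Dlx1 (-1.23 ± 0.47, adjusted p = 0.0544) and Barx1 (-0.76 ± 0.32, adjusted p = 0.083) were not called; without either library of embryo 1 both passed, and 15 of 16 were lower. Leaving out a MC library and filtering on the 5 others kept fewer of these genes in the test, and as few as 7 were then lower. Dlx3 was not called without a library of embryo 3.

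**Figure D4:**
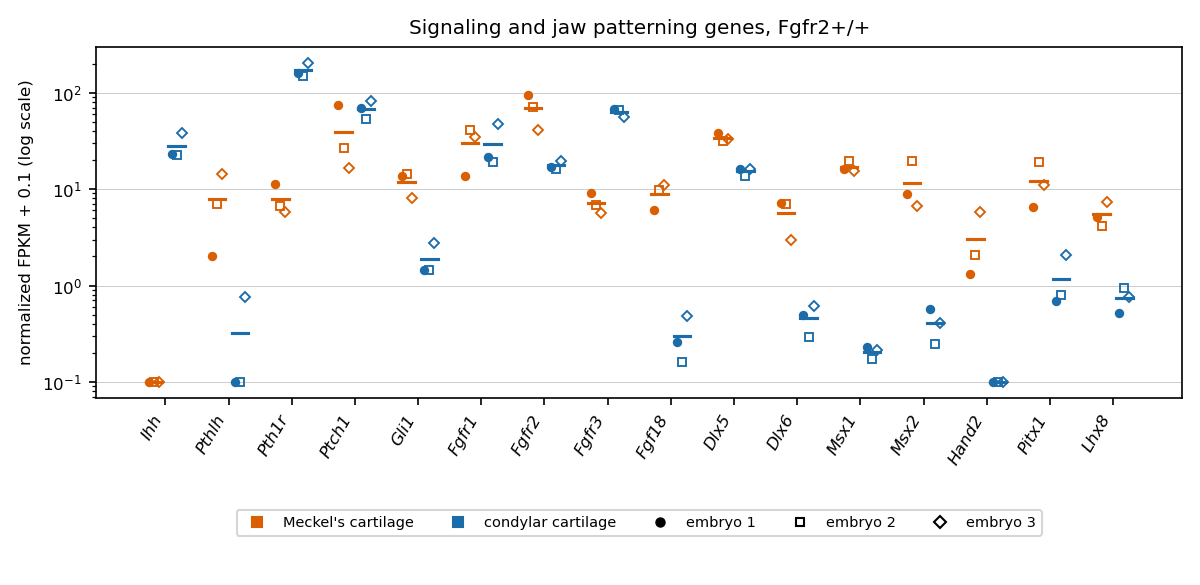
Normalized FPKM plus 0.1 (log axis) of 16 signaling and jaw patterning genes in the Fgfr2+/+ libraries, with MC in orange and condylar cartilage in blue; marker shapes are embryos and bars are means of 3. Ihh and Pth1r lie high in condylar cartilage and Pthlh, Fgf18, Msx1 and Hand2 in MC, and Fgfr2 and Fgfr3 are ordered in opposite ways.

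The FGF receptors, one of which carries the mutation of the study's other genotype, divided between the tissues. Fgfr3, which in growth cartilage slows chondrocyte division, was at 9.07, 6.77 and 5.59 FPKM in MC and 68, 65.7 and 56.4 in condylar cartilage (log2 difference 3.14 ± 0.27, adjusted p = 5.26e-06). Fgfr2 was at 93.3, 70.7 and 41.2 and 16.7, 16.2 and 19.5 (log2 difference -1.92 ± 0.24, adjusted p = 7.00e-05). Its annotated span overlaps that of many genes, among them Oat, Tacc2 and Chst15, and fragments shared by overlapping genes were not counted, so its level against the other receptors is uncertain. Fgfr1 was at 13.7, 41 and 34.3 and 21.5, 19.1 and 46.9 and did not pass (log2 difference 0.01 ± 0.39, adjusted p = 0.99). By mean FPKM, Fgfr2 was the highest of Fgfr1 to Fgfr4 in MC (68.4 ± 26.1, SD, n = 3) and Fgfr3 in condylar cartilage (63.4 ± 6.12). Of the ligands, Fgf18, which acts on chondrocytes from the perichondrium, was lower at 5.95, 9.79 and 10.8 and 0.159, 0.0593 and 0.379 (log2 difference -5.4 ± 0.67, adjusted p = 6.14e-05), and Fgf10 was lower by -6.59 ± 0.91 (adjusted p = 1.28e-04). The feedback gene Spred2 was lower by -1.39 ± 0.28. Dusp6, another feedback gene, was at 0.631, 1.85 and 4.41 and 0.382, 0.327 and 1.05, with overlap (log2 difference -1.84 ± 0.57, adjusted p = 0.0222), and was not called without the embryo block (-1.51, adjusted p = 0.105), with no filter or without the condylar library of embryo 2. Spry4 (0.44 ± 0.70, adjusted p = 0.663) and Etv5 (-0.62 ± 0.51, adjusted p = 0.373) did not pass. Of 21 members, 13 were tested, 3 were higher and 5 lower (median -0.62), beside 36.5% called of all tested genes. Of the 13, 7 exceeded 1 FPKM in all 6 libraries. Others, such as Fgf18, passed the filter through the tissue in which they are high, so the counts are descriptions only. Without the MC library of embryo 1, Fgfr3 was the one higher member and 6 were lower, Fgfr4 (1.86, adjusted p = 0.0958) and Fgfrl1 (0.86, adjusted p = 0.0567) missing the threshold. Leaving out the MC library of embryo 2 or of embryo 3, which also left fewer members in the test, gave 2 lower.

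BMP and TGF-beta genes went both ways, 8 of 25 tested members higher and 8 lower of 30 in all (median 0.16). Of all tested genes 18.3% were higher and 18.2% lower. Without the MC library of embryo 1 the counts were 5 and 6 of 25, beside 15.4 and 15.2% of all genes. Leaving out each library in turn gave 4 to 7 higher and 4 to 8 lower members. Bmp6, a ligand of hypertrophic cartilage, was at 1.8, 1.74 and 5.45 FPKM in MC and 50.1, 51.4 and 63.8 in condylar cartilage (log2 difference 4.33 ± 0.35, adjusted p = 3.32e-06). Gdf10 was at 16.3, 20.7 and 18 and 0.878, 0.14 and 1.53 (log2 difference -4.57 ± 0.56, adjusted p = 5.82e-05), the reverse order. Bmp2 and Bmp4, the ligands of early chondrogenesis, did not pass (0.42 ± 0.40 and 0.40 ± 0.46). The receptor Bmpr1b was lower by -4.73 ± 0.67, and Bmpr2 did not pass (-0.01 ± 0.18). Bmpr1a was lower by -0.66 ± 0.20 but not without a library of embryo 1 (adjusted p = 0.109 and 0.167 without MC and condylar), without the condylar library of embryo 2 (0.0687) or with no filter (0.0557). The extracellular regulators Bmper, Chrdl1 and Nog were higher, by 4.15 ± 0.54, 1.98 ± 0.31 and 3.52 ± 0.94. In the TGF-beta branch, the ligand Tgfb2 was higher at 10.7, 10.8 and 16.6 against 24.3, 25 and 20.4 (log2 difference 0.90 ± 0.25, adjusted p = 0.0118), but not without a library of embryo 1 or of embryo 2 (adjusted p from 0.0593 to 0.0948). Tgfb3 was lower at 31.6, 52.2 and 54.1 against 11.2, 11.9 and 15.8 (log2 difference -1.8 ± 0.23, adjusted p = 6.71e-05), and all 3 receptor genes Tgfbr1, Tgfbr2 and Tgfbr3 were lower, by -1.18 ± 0.25, -1.53 ± 0.26 and -4.71 ± 0.55.

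Wnt ligands and their secreted inhibitors also split, with 8 of 19 tested members higher and 9 lower of 25 in all (median 0.57), and 9 and 9 without the MC library of embryo 1. Of the 19, 5 exceeded 1 FPKM in all 6 libraries and most others passed the filter through the tissue in which they are high, so these counts too are descriptions only. Wnt4, a ligand of prehypertrophic cells and joints, was at 0.191, 0.539 and 0 FPKM in MC and 10.4, 9.38 and 8.76 in condylar cartilage (log2 difference 5.74 ± 0.84, adjusted p = 1.87e-04). Wnt5b, also a ligand of prehypertrophic chondrocytes and overlapping Fbxl14, was at 1.57, 0.0608 and 0.238 and 12.6, 12.1 and 14 (log2 difference 4.57 ± 0.72, adjusted p = 3.32e-04). Wnt5a, its relative, was lower (log2 difference -1.32 ± 0.24, adjusted p = 9.03e-04). The inhibitor Frzb was at 11.3, 7.53 and 3.32 and 64.8, 67.3 and 93.2 (log2 difference 3.32 ± 0.36, adjusted p = 2.34e-05), and Wif1 and Dkk1 were higher by 3.23 ± 0.57 and 4.85 ± 0.77. The inhibitor Sfrp2 was at 19.6, 70.2 and 54.6 and 0.0314, 0.386 and 2.36 (log2 difference -6.23 ± 0.69, adjusted p = 2.71e-05), and Dkk2 and Dkk3 were lower by -3.61 ± 0.67 and -2.59 ± 0.36. The Wnt-enhancing Rspo3 was at 3.38, 15 and 14.5 and 0.131, 0.676 and 0.439 (log2 difference -4.67 ± 0.54, adjusted p = 3.58e-05), and its receptor Lgr5 was lower by -5.11 ± 0.88. The target Axin2 did not pass (0.85 ± 0.36, adjusted p = 0.0813), while the targets Nkd1 and Nkd2 were lower by -3.56 ± 0.43 and -4.3 ± 0.64. Leaving out a MC library together with its filter gave as few as 4 lower members, and without the condylar library of embryo 3, 5 were higher.

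Genes of perichondrium and fibrous connective tissue were mostly higher in MC, 9 of 15 tested members being lower and 3 higher in condylar cartilage of 19 in all (median -1.05), and 8 and 4 without the MC library of embryo 1. Ogn, a small leucine-rich proteoglycan, was at 60.9, 74.5 and 51.6 FPKM in MC and 0.718, 0.776 and 2.21 in condylar cartilage (log2 difference -5.74 ± 0.46, adjusted p = 2.98e-06). Mfap4, a microfibril protein, was at 89.5, 177 and 119 and 6.34, 6.98 and 20.1 (log2 difference -3.64 ± 0.33, adjusted p = 6.60e-06), and it overlaps Mapk7. Col14a1, a fibril-associated collagen, was lower by -5.33 ± 0.41 (adjusted p = 2.35e-06). Aspn and Postn were lower by -5.87 ± 0.71 and -1.72 ± 0.28, and Col3a1 by -1.05 ± 0.20. Their MC libraries lay above every condylar library. The collagen V genes were higher in condylar cartilage, Col5a1 at 41.5, 43.5 and 48.2 and 91.3, 85.5 and 117 (log2 difference 1.13 ± 0.18, adjusted p = 3.27e-04) and Col5a2 by 0.97 ± 0.19, as was Lum (0.78 ± 0.17). Col12a1 did not pass (-0.38 ± 0.22, adjusted p = 0.194). Of 9 tendon and ligament genes 5 were tested, of which Thbs4 and Col14a1 were lower. Scx, which defines tendon progenitors, was not tested (at most 3.34 FPKM, and it overlaps Bop1), Mkx did not pass (-0.58 ± 0.28, adjusted p = 0.119), and Tnmd had 4 fragments in MC and 3 in condylar cartilage. Thbs4 and Col14a1 were both lower without the MC library of embryo 1 over the same genes, where Tnc was higher. None was lower without the MC library of embryo 2, and 1 was without the condylar library of embryo 2 or the MC library of embryo 3. Leaving out the MC library of embryo 2 or 3 and filtering again left 4 members in the test. Col14a1 was called in all 18 settings that tested it.

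Matrix proteases were lower in condylar cartilage. Of 19 proteases and inhibitors, 18 were tested, 12 were lower and 3 higher (median -1.69), against 11 and 3 without the MC library of embryo 1. Mmp14, a membrane-bound collagenase, was at 88.7, 139 and 96.7 FPKM in MC and 18.3, 18.2 and 24.5 in condylar cartilage (log2 difference -2.4 ± 0.21, adjusted p = 6.42e-06). Its partner inhibitor Timp2 was at 99.9, 174 and 122 and 21.1, 17.4 and 29.3 (log2 difference -2.54 ± 0.24, adjusted p = 8.51e-06). Mmp2, which both activate together, was at 80.3, 104 and 112 and 41.2, 40.4 and 53.8 (log2 difference -1.13 ± 0.20, adjusted p = 7.27e-04). For all 3 every MC library lay above every condylar library. The aggrecanases Adamts4 and Adamts5 were lower by -3.3 ± 0.47 and -3.69 ± 0.64, Mmp11 by -2.7 ± 0.41, and cathepsin B (Ctsb, which overlaps Fdft1) by -1.68 ± 0.21. The higher members were Timp1 (1.39 ± 0.33), Timp3 (0.64 ± 0.18) and Mmp23 (1.84 ± 0.59). Ctsl (0.19 ± 0.23) and Mmp16 (0.42 ± 0.29) did not pass. Without the MC library of embryo 3 no member was higher.

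Markers of other cell types that a dissected piece could hold were higher on the MC side for blood lineages. Most of the tested markers passed the filter through MC, where they are high (2 of 7 macrophage and 1 of 6 osteoclast genes exceeded 1 FPKM in all 6 libraries), so their counts are descriptions only. Of 11 macrophage and leukocyte genes 7 were tested and all 7 were lower in condylar cartilage (6 without the MC library of embryo 1), and of 10 osteoclast genes 6 were tested and 5 were lower (5 without it). Leaving out a MC library together with its filter gave as few as 4 and 2 lower members. Tyrobp, an adaptor of myeloid cells, was at 23.8, 13.7 and 30.0 FPKM in MC and 0.111, 0.374 and 1.2 in condylar cartilage (log2 difference -5.46 ± 0.74, adjusted p = 1.11e-04). Mmp9, the gelatinase of osteoclasts, was at 28.7, 17.6 and 8.18 and 0.318, 0.0209 and 0.446 (log2 difference -6.33 ± 0.85, adjusted p = 1.06e-04). Acp5 and Ctsk, which encode the acid phosphatase and the collagen-cleaving cathepsin of osteoclasts, were lower by -3.18 ± 0.48 and -1.95 ± 0.29. The summed macrophage level was 57.4 to 87.1 FPKM in MC and 3.6 to 11 in condylar cartilage, while mandibular bone of the same embryos had 201 to 208. The defining macrophage gene Adgre1 was at most 1.36 FPKM in MC, Csf1r, which overlaps Hmgxb3, was at 2.53, 1.95 and 3.4, and the osteoclast gene Calcr had no fragment in either cartilage. The part of such cells in the other lower genes was not tested.

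Few vascular, muscle, nerve and epithelial markers were called. Of 12 endothelial genes 3 were tested and Cdh5 alone was lower (-1.51 ± 0.42, adjusted p = 0.0129); it did not pass without the MC library of embryo 1 (-0.82). Of 7 smooth muscle and pericyte genes 4 were tested, and the one called, also without the MC library of embryo 1, was Cspg4 (NG2), at 3.72, 10.9 and 7.9 FPKM in MC and 102, 87.5 and 131 in condylar cartilage (log2 difference 3.96 ± 0.33, adjusted p = 3.74e-06). Myh11, the myosin of smooth muscle, had 1 fragment in MC and 16 in condylar cartilage, and Acta2 and Tagln, which overlaps Pcsk7, did not pass. Of 19 skeletal muscle genes 13 were tested and none was called, with or without the MC library of embryo 1. Their summed level was 2.7, 155 and 30.7 FPKM in MC and 8.8, 56.1 and 113 in condylar cartilage, so that both libraries of embryo 1 were low. Without a library of embryo 2, 3 of them were higher, and without the MC library of embryo 3, 4 were lower.

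Of 8 erythroid genes 5 were tested and 3 globin genes were lower, Hba-a1 at 53.8, 133 and 182 FPKM in MC and 2.88, 16.6 and 74 in condylar cartilage (log2 difference -2.4 ± 0.41, adjusted p = 5.92e-04). The globin paralogs share sequence, and the split of fragments among them is uncertain. Among 12 nerve and Schwann cell genes 3 were tested. Gap43, a growth cone protein of axons, was lower (-2.31 ± 0.68, adjusted p = 0.0179), but not without a library of embryo 2. Sox10, the defining factor of Schwann cells, had 1 fragment in MC and 106 in condylar cartilage, a ratio of 60.9 (95% counting interval 10.7 to 2429.6), but it did not exceed 1.35 FPKM and was not tested. None of 9 epithelial and tooth genes passed the filter. Their summed level was low but higher in every MC library, at 5.04, 2.93 and 2.42 FPKM against 0.21, 0.0661 and 0.328. The enamel matrix gene Ambn had 62 fragments in MC and none in condylar cartilage, Krt5, a keratin of basal epithelium, 43 and 2, and Krt14 none in either. Of 8 immediate early and heat shock genes 4 were tested, and Jun was lower (-2.09 ± 0.38, adjusted p = 9.68e-04) while Fos did not pass (-0.17 ± 0.72). The erythroid, nerve and immediate early counts were the same without the MC library of embryo 1.

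The Fgfr2+/S252W littermates offered a second set of 3 embryos in which the same tissues had been taken. In them 3971 genes (33.6%) were called, 1996 (16.9%) higher and 1975 (16.7%) lower in condylar cartilage. Of the 4316 calls in controls, 4230 had the same sign in the mutants and 3133 were called there in the same direction, 72.6% of the control calls and 78.9% of the mutant calls; 1 gene was called in opposite directions. The difference between genotypes of the tissue difference passed for 0 genes by limma (637 at an unadjusted p below 0.05, smallest adjusted p = 0.188), for 1 gene by edgeR and for 12 by DESeq2. The mutant MC library 1 also stood apart, with a summed cartilage matrix level of 2697 FPKM against 740 and 712 in the other mutant MC libraries, the reverse of MC library 1 of the controls, and its part in the mutant values was not tested. Ihh was at 0 in all 3 mutant MC libraries and at 23.7, 22.9 and 43.8 FPKM in mutant condylar cartilage (scaled over all 18 libraries). In the mutants Col10a1 differed by 9.59 ± 0.61, Hapln1 by 7.08 ± 0.44 and Sox9 by 2.17 ± 0.31. In the mutants 14 cartilage matrix genes were higher and 1 lower, 27 of 30 cell cycle genes were lower, and 14 jaw patterning genes were lower and 1 higher. Fgfr3 differed by 3.01 ± 0.30 and Fgfr2 by -1.3 ± 0.24 (adjusted p = 0.00123). Ccnd1, at -1.9 ± 0.27 in controls, was at -0.70 ± 0.27 in mutants (adjusted p = 0.0675), and Mmp13, not called in controls, was at 3.34 ± 0.74 (adjusted p = 0.00394); neither difference between genotypes passed by limma. For Ibsp, Sp7 and Runx2 the mutant values were 9.61, 2.82 and 1.53, beside 9.36, 3.17 and 2 in controls without the MC library of embryo 1. Of the skeletal muscle genes, 7 were lower in the mutants and none in controls.

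**Figure D5:**
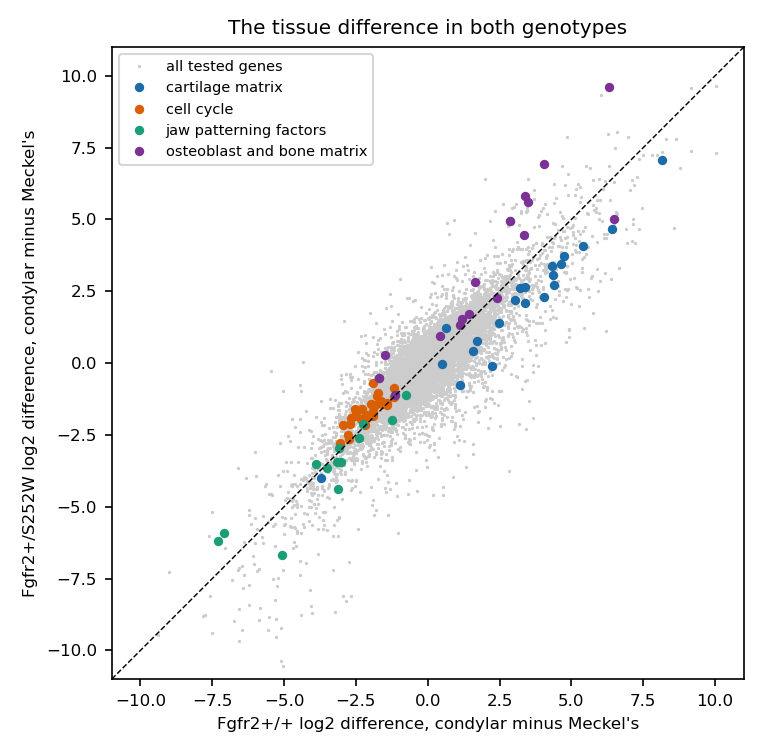
Log2 difference, condylar minus Meckel's cartilage, in Fgfr2+/+ (horizontal) and Fgfr2+/S252W embryos (vertical) for all 11822 tested genes (gray) and for 4 lists in color; the dashed line marks equal differences. Cell cycle and jaw patterning genes lie at the lower left and cartilage matrix genes at the upper right in both genotypes.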

How the data were processed

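RNA was isolated from laser-captured pieces of frozen mandible sections, amplified with the NuGEN Ovation RNA-Seq System v2 and made into Nextera XT libraries for paired-end sequencing. The deposited values are raw counts: the authors aligned to mm10 using STAR, and featureCounts 1.5.0 assigned read pairs to exons of the Ensembl GRCm38 annotation, release 75, with no strand. Multimapping fragments and fragments that overlap several genes were not counted, and genes on opposite strands that overlap cannot be told apart. Amplification without molecular identifiers means that intervals cover counting error only.

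The printed FPKM levels were computed from these counts, exon length and TMM factors. For the filter and the counts of genes above 1 FPKM, FPKM used total fragments without TMM factors. MC was scaled lower there, relative to condylar cartilage, than in the printed levels, which made this cut stricter for MC. A gene had to exceed 1 FPKM in 50% or more of the 6 control cartilage libraries. The genes kept were tested with voom and limma 3.58.1 (edgeR 4.0.16 for TMM, R 4.3.3). The fit held all 12 cartilage libraries of both genotypes with embryo as a fixed block. The cut, TMM, voom and limma follow the study's methods. The study filtered over its samples and fitted all its sample groups, so the choice of libraries and the block are departures. The block was added because both tissues of an embryo would share the animal. DESeq2 1.42.0 and edgeR's quasi-likelihood test served as alternatives, beside other filters, scalings, blocks and libraries left out. The code was tested on simulated data. Embryos are the replicates, 3 a tissue, and that a replicate number marks 1 embryo is read from the shared stem of the sample codes and the 3 embryos per genotype of the study's methods, not stated outright; deviations from the tissue means correlated at r = 0.0915, -0.0291 and 0.0363 within embryos 1, 2 and 3, so the data do not show the pairing themselves.

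The genes and lists were chosen with earlier results of these data known, and their counts are descriptions. The rule named the 12 largest increases and 12 largest decreases among called genes whose libraries do not overlap, with at least 100 fragments in each library of the higher tissue, the 4 smallest p-values, and in each of 26 lists (386 genes) up to 4 called members with the smallest p, the first 3 members and any whose sign differed in the mutants; 161 of the 174 were tested. Some of the genes the rule takes are not reported here. Other list members given with values were chosen after their values were seen. Promoter windows came from RefSeq (GRCm38.p6), and 271 of 386 list genes had a window.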

Additional observations from a re-analysis of the deposited data

How the results depend on the processing

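Across all alternatives none of the 126 called genes named by the rule turned its direction, and 114 stayed past the threshold in every setting that tested them; the others were Bmp3, C1qb, Cadm1, Cdh5, Col9a2, Csf1r, Dlx3, Fgfr4, Gap43, Runx2, Sp7 and Thbs4. Of the further members given with values, Arid5b, Bmpr1a, Col11a2, Col1a2, Dusp6, Fgfrl1, Hhip, Hif1a, Mmp23, Pcna, Ptch1, Tgfb2, Tgfbr1, Timp1 and Timp3 lost their calls in at least 1 setting. Of the 35 named genes not called, 11 passed in at least 1 setting (Alpl, Cdkn1b, Dlx1, Epyc, Etv5, Itgb3, Myh3, Myh8, Mylpf, Pecam1 and Tagln). The counts of genes higher and lower were 2165 and 2151 and stayed within 1.5 times of this, except that without MC library 2 the lower genes numbered 1413. Leaving out each library in turn gave 1468 to 1719 higher and 1413 to 1737 lower genes, and 10 to 35 of the called named genes then tested moved by more than 1.5-fold. Genes whose tissue difference differed between genotypes numbered 0 by limma, 1 by edgeR, 12 by DESeq2, 1 with no filter, 1 with sample quality weights and 0 to 3 when a library was left out; the cause was not tested. The share of calls that were higher ran from 47.5 to 53.6%, and without the filter the median of the same genes moved by 0.126.

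Replicate numbers were taken to pair the libraries of an embryo. Without the replicate block 2505 genes were higher and 2223 lower. Without it Runx2, Ptch1 and Dusp6 lost their calls (adjusted p = 0.056, 0.0541 and 0.105 by limma), Dlx1 and Epyc gained one (0.0484 and 0.0344), and 3 uncalled muscle genes changed sign. Myh3 was at 1.46 without the block, 1.49 with a random block, 1.42 and 1.48 without it in the 6 control and in all 18 libraries, 0.44 by edgeR and 1.17 by DESeq2. Myh8 was at 0.60 without the block, 0.63 with a random block, 0.57 and 0.62 without it in the 6 control and in all 18 libraries, 0.026 by edgeR and 0.026 by DESeq2. Tnnc1 was at 1.04 without the block, 1.05 with a random block, 1.04 and 1.06 without it in the 6 control and in all 18 libraries, 0.089 by edgeR and 1.49 by DESeq2. With no filter Tnnc1 was at 0.27.

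The other genes that changed sign were not called in the main comparison. With filterByExpr Bmpr2 was at 0.0601 and Hk1 at 0.0498, with no filter they were at 0.12 and 0.11, and Fgfr1 was at -0.000456 with totals outside Gm42418 and mitochondrial genes in place of TMM, a setting chosen after seeing the data. Log2 differences when each library was left out ranged as follows: Acta2 (-0.28 to 1.33), Actc1 (-0.49 to 1.60), Bmp2 (-0.00028 to 0.90), Bmp4 (-0.28 to 0.87), Bmpr2 (-0.086 to 0.065), Chsy3 (-0.048 to 1.33), Enpp1 (-0.34 to 1.18), Etv5 (-1.65 to 0.072), Fgfr1 (-0.35 to 0.59), Fos (-0.82 to 0.63), Hk1 (-0.095 to 0.049), Mmp13 (-0.68 to 1.57), Myl1 (-1.10 to 1.02), Mylpf (-0.14 to 3.38), Neb (-0.96 to 0.68), Smad7 (-0.076 to 0.49), Spry4 (-0.80 to 0.40), Tnni2 (-0.55 to 0.76), Ucma (-0.26 to 1.38), Vegfa (-0.31 to 0.26) and Xylt2 (-0.095 to 0.56). Without MC library 1 over the same genes, also chosen after seeing the data, the values were Bmp4 -0.23, Chsy3 -0.002192, Enpp1 -0.29, Fgfr1 -0.30, Itgb3 0.032, Spry4 -0.76, Tnni2 -0.51, Ucma -0.21 and Xylt2 -0.0495.

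Depth limits the low genes of MC. The MC libraries had fewer fragments outside mitochondrial RNA and Gm42418, and genes near the filter passed mostly through the tissue in which they were high, so counts over tested members leave out genes low in both. With 3 embryos a side the fit had 4 residual degrees of freedom and a median standard error of 0.369, and a gene that did not pass is not shown to be equal in both cartilages.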

Other observations

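The mandibular bone of the same 3 control embryos gives a further level for each gene, on a scale set over all 18 libraries. These values were not tested. Genes of hypertrophic cartilage and of osteoblasts were placed differently by tissue. Col10a1 was at 0.719, 0.43 and 0.791 FPKM in bone, beside means of 1.52 in MC and 885 in condylar cartilage. Panx3 was at 199.7, 201 and 225 in bone, between MC (25.3) and condylar cartilage (774). Spp1, which encodes osteopontin, was at 1424, 1813 and 1423 in bone, above both MC (16.7) and condylar cartilage (134). Mmp13, which did not pass between the cartilages, was at 516, 552 and 423 in bone and at 4.07 and 4.68 in MC and condylar cartilage. Bglap, the osteocalcin gene, was at 12.2, 18.7 and 27.8 in bone, against 0 and 0.123. Condylar cartilage thus held Col10a1 and Ibsp (mean 1729; bone 3219, 2449.7 and 3502) with little Bglap or Mmp13.

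Several genes that were higher in MC than in condylar cartilage reached similar or higher levels in bone, except Ogn in embryo 3. Mki67 was at 26.7, 27.1 and 27.1 FPKM in bone, against means of 25 for MC and 3.83 for condylar cartilage. Ogn was at 87.3, 81.6 and 37.7 in bone and at 72.6 and 1.45 in the cartilages. Ctsk was at 269.5, 326 and 269.9 in bone, where osteoclasts are found, and at 30.2 and 7.84. Others were highest in MC. Pthlh was at 0.765, 0.42 and 0.288 in bone and 9.04 in MC, Sfrp2 at 14.6, 8.3 and 10.1 against 56.1, and Msx2 at 1.4, 1.08 and 1.07 against 13.5. Fgfr3, Papss2 and Slc2a1 were low in bone as in MC. Fgfr3 was at 6.01, 5.01 and 8.49 in bone, Papss2 at 13.2, 18.8 and 18.7 and Slc2a1 at 8.77, 11.8 and 8.54, beside means in condylar cartilage of 74, 195 and 105. Cdkn1a, in contrast, was at 72, 70.7 and 94 in bone, near the condylar mean of 103 and above the MC mean of 13.7.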
